A study of Rattus norvegicus with 10 samples.

Results

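The 9 genes described here encode proteins of central myelin, the membrane sheath that oligodendrocytes wrap around axons in the brain and spinal cord. They are Mbp, Mobp, Cnp, Mag, Mog, Opalin, Cldn11, Ermn and Gpm6b. They were chosen by name, with earlier results of these data known. Each was represented by 1 transcript cluster, the unit in which Clariom S arrays report a gene, so that the set holds 9 of the 15037 rat genes with a symbol on the array and 9 of the 23188 transcript clusters that were tested.

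Central myelin is built in layers with different proteins. Mbp and Mobp lie in compact myelin, where positively charged Mbp holds the inner faces of the membrane together, and Cnp keeps cytoplasm-filled channels open in the uncompacted parts. Mag sits on the membrane that faces the axon, Mog on the outermost surface of the sheath, and Cldn11 forms tight junctions between the layers. SOX10 is a DNA-binding protein of the SOX family that glia of the central, peripheral and enteric nervous system share, and in oligodendrocytes it is needed for myelin genes to be switched on. Enteric glia of the gut wall carry SOX10 but form no myelin.

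The cells were JUG2, an enteric glial line derived from a primary culture of the rat enteric nervous system. They carried a lentiviral doxycycline-inducible Sox10 (TetO-FUW-Sox10) or, as the control line, GFP (pLV TREG EmGFP), together with the TET3G transactivator driven by the EF1a promoter. All cells of both lines thus carried the transactivator, and they were stable transduced lines selected with an antibiotic in culture. The arrays comprised 4 of SOX10 cells given 1 µg/ml doxycycline for 48 h (SOX10 +dox), 4 of untreated SOX10 cells (SOX10 -dox), 1 of GFP cells given the same treatment (GFP +dox) and 1 of untreated GFP cells (GFP -dox). The methods name 4 independent experiments, and p-values measure the spread between these arrays. Signals are given on the log2 scale, where a difference of 1.00 is 2-fold, and array medians ranged over 6.69 to 6.86. Since each gene has probes of its own, levels were not ranked between genes, and the values hold no detection call.

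Sox10, the targeted gene, was read first as a check of the labels. Its log2 signal was 12.93, 12.62 and 13.02 on SOX10 +dox replicates 2, 3 and 4, against 6.39, 6.11 and 6.43 on SOX10 -dox replicates 2, 3 and 4. It was 6.74 on the array labelled SOX10 +dox replicate 1, against 12.90 on the array labelled SOX10 -dox replicate 1. On both replicate 1 arrays the targeted gene thus ran against the label, and these arrays are shown apart. In replicates 2 to 4 Sox10 rose by 6.55 ± 0.22 (log2, SE, 93.6-fold), with an adjusted p of 3.3e-08 (limma). The GFP +dox array gave 6.20 and the GFP -dox array 5.70.

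Of the 9 central myelin genes, 3 rose in SOX10 +dox cells and none fell. Cnp rose 15.6-fold, Mobp 11.9-fold and Mbp 7.61-fold, while the other 6 genes differed by less than 2-fold and were not called. Genes were called at 2-fold or more where the adjusted p was under 0.05, in a limma fit of replicates 2 to 4 and both GFP arrays that took in all 23188 transcript clusters. By this rule 525 transcript clusters, 2.26% of those tested, were called higher and 287, or 1.24%, lower. At an unadjusted p under 0.05, 4 of the 9 were higher (Cnp, Mobp, Mbp and Mag) and 0 lower, against 7.23% of all transcript clusters higher and 7.55% lower. Folds are ratios of the deposited signals, and whether the untreated signals, such as that of Mbp, stood above background is not known from these values. Where they did not, the fold is a lower bound. Every SOX10 +dox array lay above every SOX10 -dox array for 4 of the 9 genes (Mbp, Mobp, Cnp and Mag), against 9.50% of all transcript clusters, and the reverse held for 0 of the 9, against 10.5%. In RNA from whole cultures, more cells that carry a transcript and more transcript in each cell cannot be told apart.

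Cnp encodes a phosphodiesterase of uncompacted myelin that is also bound to the cytoskeleton. Its log2 signal was 15.43, 15.32 and 14.24 on SOX10 +dox replicates 2, 3 and 4, against 10.99, 10.88 and 11.24 on SOX10 -dox replicates 2, 3 and 4. The groups did not overlap, and the lowest SOX10 +dox array stood 3.0 above the highest SOX10 -dox array. Cnp averaged 15.0 ± 0.66 in SOX10 +dox cells and 11.04 ± 0.18 in SOX10 -dox cells (SD, n = 3 each). The difference was 3.96 ± 0.31 (log2, SE, 95% interval 3.27 to 4.65) with an adjusted p of 4.28e-05 (limma). By signed log2 difference, with the largest rise first, Cnp ranked 29 among the 23188 transcript clusters.

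Mobp encodes a small, positively charged protein of compact myelin. Its log2 signal was 11.12, 11.44 and 10.44 on SOX10 +dox replicates 2, 3 and 4, against 6.72, 7.49 and 8.09 on SOX10 -dox replicates 2, 3 and 4. The groups did not overlap, with a gap of 2.35 between them, and the untreated arrays were spread more widely than those of Cnp. Mobp averaged 11.0 ± 0.51 in SOX10 +dox cells and 7.44 ± 0.69 in SOX10 -dox cells (SD, n = 3 each). It rose by 3.57 ± 0.36 (log2, SE, 95% interval 2.78 to 4.36) with an adjusted p of 0.000262 (limma), which placed it at rank 42.

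Mbp encodes myelin basic protein, whose mRNA is carried out to the myelin sheath before it is translated. Its log2 signal was 8.10, 8.72 and 5.81 on SOX10 +dox replicates 2, 3 and 4, against 4.31, 4.80 and 4.74 on SOX10 -dox replicates 2, 3 and 4. All SOX10 +dox arrays lay above all SOX10 -dox arrays, but replicate 4 stood 1.00 above the highest untreated array and well below the other two treated arrays. Mbp averaged 7.55 ± 1.54 in SOX10 +dox cells and 4.62 ± 0.27 in SOX10 -dox cells (SD, n = 3 each). The difference of 2.93 ± 0.58 (log2, SE, 95% interval 1.65 to 4.20) had an adjusted p of 0.0165 (limma). This call rested on each of several arrays. Leaving out SOX10 +dox replicate 2 gave an adjusted p of 0.0791 (difference 2.65), and leaving out replicate 3 of that group gave 0.0646 (2.34). Leaving out SOX10 -dox replicate 2, 3 or 4 gave 0.07 (2.78), 0.0562 (3.02) and 0.0505 (2.99). Leaving out SOX10 +dox replicate 4 gave 3.5e-05 (3.80), so Mbp kept its call in that case only.

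**Figure D1:**
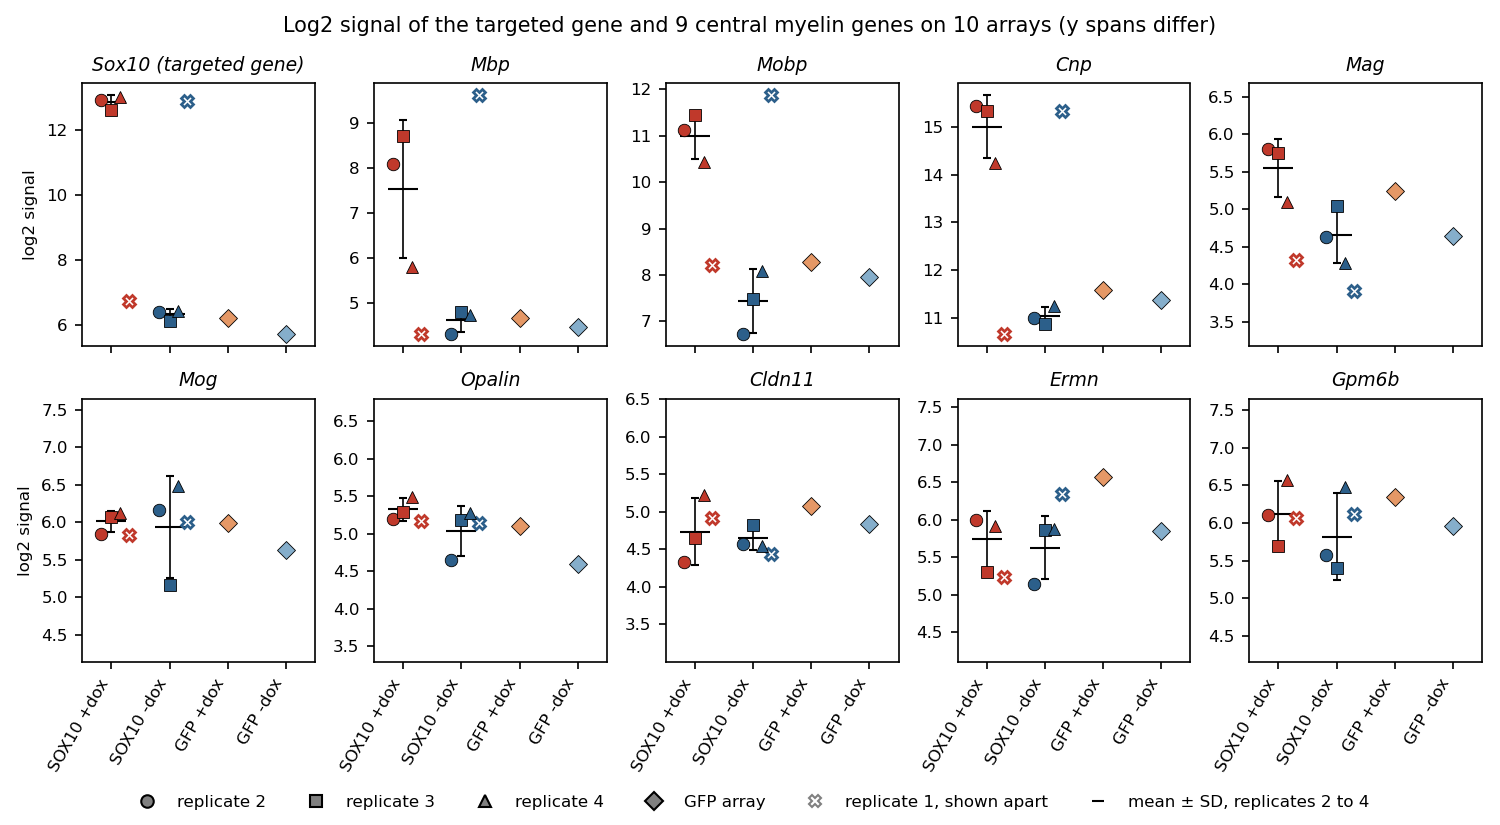
Log2 signal of Sox10 and of the 9 central myelin genes on each of the 10 arrays, by group on the x axis, with the mean and SD of replicates 2 to 4 as a bar (y ranges differ between panels). Open crosses are the replicate 1 arrays. For Cnp the 3 treated arrays lie between 14.24 and 15.43 and the 3 untreated ones between 10.88 and 11.24, whereas for Mog, Opalin, Cldn11, Ermn and Gpm6b the groups overlap.

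The size of the response differed between replicates. In same-numbered arrays, SOX10 +dox minus SOX10 -dox, Cnp differed by 4.44, 4.44 and 3.0 in replicates 2, 3 and 4. Mobp differed by 4.40, 3.95 and 2.35, and Mbp by 3.79, 3.92 and 1.07. All 3 genes were thus lowest in replicate 4, whereas Sox10 itself differed by 6.54, 6.51 and 6.60. The ratio of the replicate 4 difference to the mean of the other two was 0.28 for Mbp, 0.56 for Mobp, 0.68 for Cnp and 1.01 for Sox10. Over the 525 transcript clusters called higher, which include these genes, the median ratio was 0.88, and 9 had a ratio at or below that of Mbp. Replicate 4 had the smallest of the 3 differences in 54.3% of them. These clusters were chosen on the same contrast, so the comparison is a description.

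**Figure D2:**
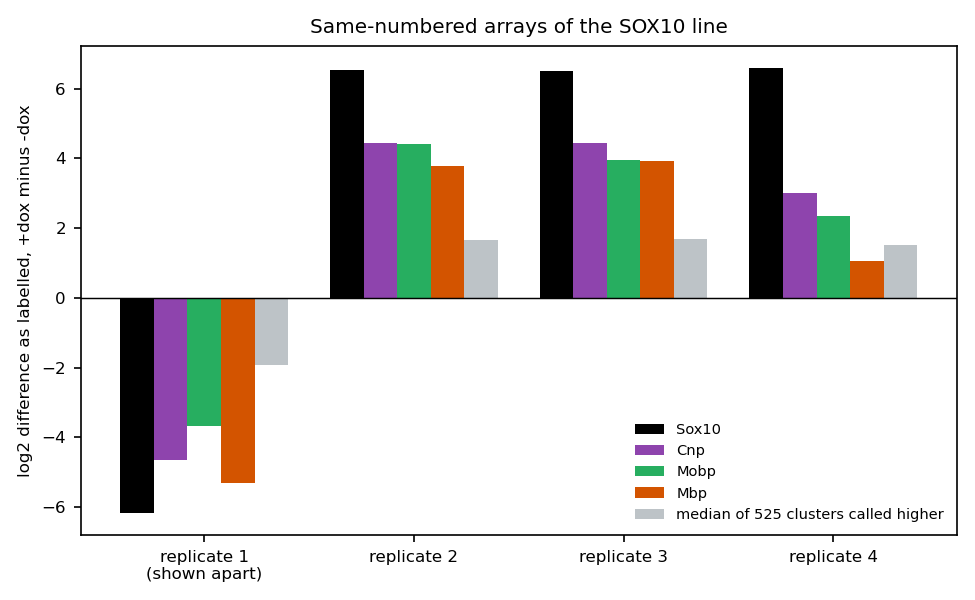
Log2 difference between same-numbered SOX10 arrays as labelled, +dox minus -dox, for Sox10, Cnp, Mobp and Mbp, beside the median of the 525 transcript clusters called higher in replicates 2 to 4. Mbp differs by 1.07 in replicate 4 against 3.79 and 3.92 in replicates 2 and 3, while Sox10 stays between 6.51 and 6.60, and all bars of replicate 1 point downwards.

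The 250 bases before the annotated starts of the 3 genes that rose are shown because SOX proteins bind short A- and T-rich letters. They come from RefSeq in the rat build GRCr8, 5′ to 3′ on the strand of the gene, and capitals mark the letters ACAAAG or ACAATG on either strand (CTTTGT and CATTGT when read on the other strand). The search covered the 300 bases from 250 before to 50 after each start. The promoter of Mobp is at chr8:128746982-128747231 (plus strand) and that of Cnp at chr10:86011254-86011503 (plus strand). Mbp has 2 annotated starts, with promoters at chr18:78130402-78130651 and chr18:78209995-78210244 (plus strand).
Mobp: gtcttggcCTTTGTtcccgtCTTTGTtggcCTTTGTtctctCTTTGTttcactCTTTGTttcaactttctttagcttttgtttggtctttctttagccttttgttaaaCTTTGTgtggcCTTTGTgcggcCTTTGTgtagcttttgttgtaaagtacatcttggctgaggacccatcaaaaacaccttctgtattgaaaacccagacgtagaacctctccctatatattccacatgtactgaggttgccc
Cnp: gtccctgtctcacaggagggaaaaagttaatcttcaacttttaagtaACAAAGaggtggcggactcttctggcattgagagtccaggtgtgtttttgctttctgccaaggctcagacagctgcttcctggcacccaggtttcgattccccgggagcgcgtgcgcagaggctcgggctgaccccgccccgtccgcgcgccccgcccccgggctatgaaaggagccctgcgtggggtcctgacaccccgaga
Mbp start 1: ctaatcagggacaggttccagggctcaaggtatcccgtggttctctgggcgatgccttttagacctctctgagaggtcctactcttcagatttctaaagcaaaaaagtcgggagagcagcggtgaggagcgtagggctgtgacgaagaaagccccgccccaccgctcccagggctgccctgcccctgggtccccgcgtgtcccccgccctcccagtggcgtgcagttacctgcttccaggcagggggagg
Mbp start 2: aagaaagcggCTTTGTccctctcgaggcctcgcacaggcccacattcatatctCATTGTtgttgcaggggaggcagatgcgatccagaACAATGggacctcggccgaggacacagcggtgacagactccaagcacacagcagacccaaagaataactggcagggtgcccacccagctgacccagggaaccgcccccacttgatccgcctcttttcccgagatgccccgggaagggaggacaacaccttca
The Mobp promoter held 8 matches, all of them ACAAAG on the strand opposite to the gene, and their first bases lay at positions -242 to -197 and -142 to -120, counted from the start. Of 33469 rat promoters of the same length, 3 (0.00896%) held at least 8. Cnp held 1 match, at position -203, and 29.1% of all promoters held at least 1 (18.8% ACAAAG, 13.2% ACAATG). The promoter at Mbp start 1 held 0, and that at start 2 held 3, a number that 0.977% of promoters reached. Among the genes that were not called, Opalin also had 3 matches, Mag 1 and Cldn11 0. The number of matches therefore did not separate the genes that rose from the others. Of the 9 genes 6 had a promoter in the table, and Mog, Ermn and Gpm6b are named only. A match is a run of letters and not a measured binding site.

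**Figure D3:**
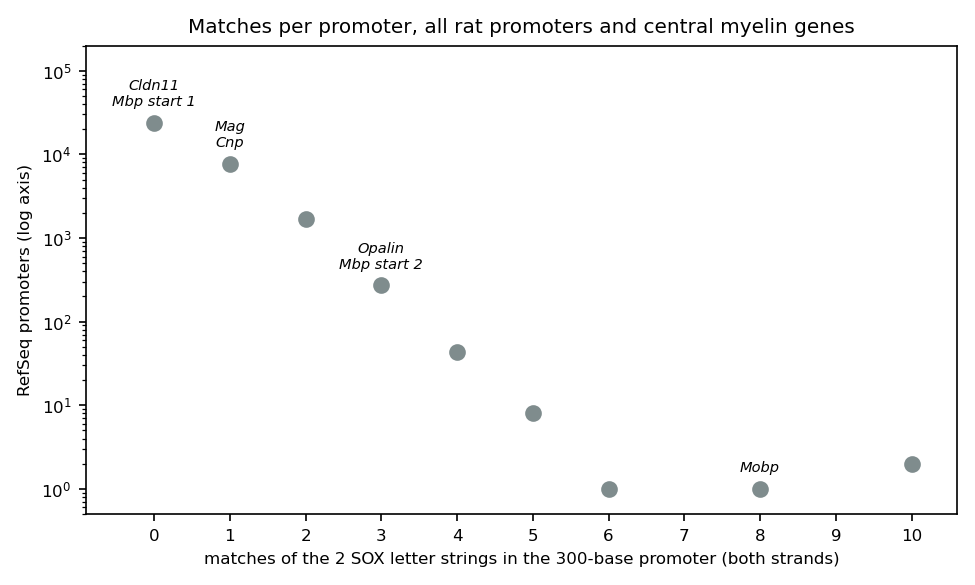
Number of RefSeq rat promoters (y axis, log scale) against the number of ACAAAG or ACAATG matches on both strands of their 300 bases (x axis), with the central myelin genes written at their own number of matches. Mobp, with 8 matches, stands in the far tail, while Cnp shares its 1 match with 7730 promoters.

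Mag, the myelin-associated glycoprotein through which myelin contacts the axon, lay between the genes that rose and those that overlapped. Its log2 signal was 5.80, 5.75 and 5.10 on SOX10 +dox replicates 2, 3 and 4, against 4.63, 5.04 and 4.29 on SOX10 -dox replicates 2, 3 and 4. The groups did not overlap, but the gap was 0.07. Mag averaged 5.55 ± 0.39 in SOX10 +dox cells and 4.65 ± 0.37 in SOX10 -dox cells (SD, n = 3 each). The difference of 0.90 ± 0.27 (log2, SE, 95% interval 0.29 to 1.5, 1.86-fold) had an adjusted p of 0.119 (limma) and was not called. Without SOX10 +dox replicate 4 it was 1.12 with an adjusted p of 0.0443, which would be a call. With the replicate number as a block the adjusted p was 0.0307 at the same difference, which is below 2-fold. All 4 same-numbered pairs of the SOX10 line had the higher value on the array labelled +dox, by 0.42 to 1.17, including replicate 1, where Sox10 ran the other way. Mag was also higher on the GFP +dox array (5.24) than on the GFP -dox array (4.64), by 0.60.

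The remaining 5 genes did not separate the groups. Mog, an immunoglobulin-like protein of the outer myelin surface and a known autoantigen, had log2 signals of 5.85, 6.07 and 6.12 on SOX10 +dox replicates 2, 3 and 4, against 6.16, 5.17 and 6.48 on SOX10 -dox replicates 2, 3 and 4. Its treated arrays lay inside the range of the untreated ones. The difference was 0.08 ± 0.32 (log2, SE, adjusted p = 0.95, limma).

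Opalin, a sialylated membrane protein of oligodendrocytes, had 5.19, 5.29 and 5.49 on SOX10 +dox replicates 2, 3 and 4, against 4.65, 5.18 and 5.27 on SOX10 -dox replicates 2, 3 and 4. The groups overlapped by 0.09, and the difference was 0.29 ± 0.24 (adjusted p = 0.663, limma). Cldn11, the claudin of central myelin, had 4.33, 4.65 and 5.22 on SOX10 +dox arrays, against 4.57, 4.82 and 4.54 on SOX10 -dox arrays. Its highest and lowest values were both on treated arrays, and the difference was 0.09 ± 0.26 (adjusted p = 0.926, limma).

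Ermn, which encodes ermin, an actin-binding protein of mature oligodendrocytes, had 6.0, 5.30 and 5.92 on SOX10 +dox replicates 2, 3 and 4, against 5.15, 5.86 and 5.88 on SOX10 -dox replicates 2, 3 and 4. The ranges overlapped, and the difference was 0.11 ± 0.28 (adjusted p = 0.915, limma). Gpm6b, a member of the proteolipid family that neurons also express, had 6.11, 5.69 and 6.57 on SOX10 +dox arrays, against 5.57, 5.40 and 6.48 on SOX10 -dox arrays. Replicate 4 was high in both groups, and the difference was 0.31 ± 0.32 (adjusted p = 0.747, limma). The upper ends of the 95% intervals were 0.67 for Cldn11, 0.73 for Ermn, 0.77 for Mog and 0.81 for Opalin, below 2-fold, and 1.02 for Gpm6b. These intervals are for the deposited signals, which for these genes lay below the array medians (6.69 to 6.86). Whether they stood above background is not known. Where they did not, the intervals do not bound the change in transcript. Ermn, Cldn11 and Mog changed sign when certain arrays were left out, so no direction is given for them.

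The GFP line served as the control for doxycycline itself. On the GFP +dox array Mbp had a log2 signal of 4.66, against 4.48 on the GFP -dox array. Mobp had 8.27 on the GFP +dox array, against 7.95 on the GFP -dox array. Cnp had 11.59 on the GFP +dox array, against 11.38 on the GFP -dox array. For all 3 genes both GFP arrays lay far below the SOX10 +dox arrays of replicates 2 and 3, and close to the SOX10 -dox arrays. The GFP difference was above 0 for all 9 genes, between 0.18 (Mbp) and 0.72 (Ermn), with a median of 0.36, against a median of -0.02 over all transcript clusters. The GFP +dox array had the highest median (6.86) and the lowest SD (2.97) of the 10 arrays, against 6.79 and 3.10 on the GFP -dox array. Whether this raised low signals on the GFP +dox array was not tested. The median of the 9 genes in the SOX10 line was 0.31. With 1 array per group the spread of the GFP line was taken from the SOX10 arrays, and limma called 0 of the 9 genes and 0.00% of all transcript clusters. At an unadjusted p under 0.05 these numbers were 0 of the 9 and, over all transcript clusters, 873 higher (3.76%) and 585 lower (2.52%).

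The difference between the response of the SOX10 line and that of the GFP line, tested as an interaction, was called for Cnp only among the 9 genes, against 0.358% of all transcript clusters called higher and 0.0259% called lower. For Cnp the SOX10 difference exceeded the GFP difference by 3.76 ± 0.62 (log2, SE, 95% interval 2.38 to 5.13, adjusted p = 0.0334, limma). These errors and p-values rest on the spread of the SOX10 arrays, since with 1 array per group the spread of the GFP line was not measured. Mobp gave 3.25 ± 0.72 (adjusted p = 0.119) and Mbp 2.75 ± 1.16 (adjusted p = 0.506), which were not called. The 6 other genes lay between -0.61 (Ermn) and 0.30 (Mag). Cnp lost this call when SOX10 +dox replicate 2 (adjusted p = 0.0738) or 3 (0.0935) was left out, and likewise for SOX10 -dox replicate 2 (0.0845), 3 (0.0984) or 4 (0.0575). Without SOX10 +dox replicate 4 all 3 genes were called, Cnp at 4.14 (adjusted p = 0.00193), Mbp at 3.62 (0.0109) and Mobp at 3.53 (0.0461).

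**Figure D4:**
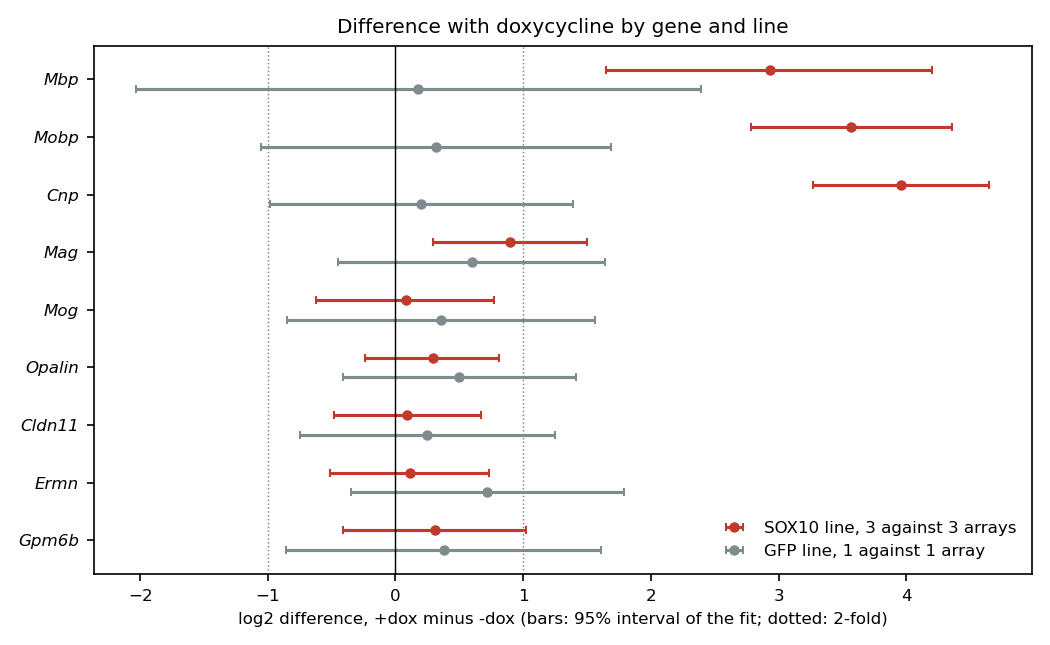
Log2 difference with doxycycline, +dox minus -dox, for the 9 central myelin genes (rows) in the SOX10 line (3 against 3 arrays) and the GFP line (1 against 1 array), with 95% intervals of the limma fit and dotted lines at 2-fold. The SOX10 intervals of Mbp, Mobp and Cnp lie between 1.65 and 4.65, and the GFP intervals of all 9 genes include 0.

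On the replicate 1 arrays the genes that rose followed Sox10 and not the labels. Cnp had a log2 signal of 10.66 on the array labelled SOX10 +dox, against 15.32 on the array labelled SOX10 -dox. Mobp had 8.21 on the array labelled SOX10 +dox, against 11.87 on the array labelled SOX10 -dox. Mbp had 4.31 on the array labelled SOX10 +dox, against 9.62 on the array labelled SOX10 -dox. The array labelled SOX10 -dox held the highest value of the 10 arrays for Mbp and Mobp. Mag (4.33 against 3.91), Mog (5.83 against 6.0), Opalin (5.17 against 5.14), Cldn11 (4.92 against 4.43), Ermn (5.24 against 6.34) and Gpm6b (6.07 against 6.12) lay closer together on the arrays labelled +dox and -dox, with differences from -1.10 (Ermn) to 0.49 (Cldn11). With all 8 SOX10 arrays kept as labelled, limma called 0 of the 9 genes and 0.00% of all transcript clusters. Mag, with a difference of 0.78, was then the 1 gene of the 9 at an unadjusted p under 0.05, against 1.93% of all transcript clusters higher (447) and 1.79% lower (416). Cnp then differed by 1.81 ± 1.13, Mobp by 1.76 ± 0.99 and Mbp by 0.87 ± 1.18 (log2, SE, adjusted p between 0.973 and 0.978).

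Other genes of central myelin gave a similar picture of a few large differences among many small ones. Of 40 measured genes for other proteins of central myelin, 4 rose and 1 fell, against 2.26% and 1.24% of all transcript clusters. The list is broad and also holds genes that are not confined to central myelin, such as Pmp22, a peripheral myelin protein. The median difference of 0.36 compares with -0.02 over all transcript clusters. Bcas1, a protein of early myelinating oligodendrocytes, averaged 8.30 ± 0.88 in SOX10 +dox cells and 5.06 ± 0.13 in SOX10 -dox cells (3.24 ± 0.37, adjusted p = 5.4e-04, limma). Cadm4, an adhesion molecule on the inner myelin membrane, averaged 15.37 ± 0.31 in SOX10 +dox cells and 13.26 ± 0.30 in SOX10 -dox cells (2.11 ± 0.25, adjusted p = 7.24e-04). Aspa, the enzyme that splits N-acetylaspartate in oligodendrocytes, averaged 9.24 ± 0.27 in SOX10 +dox cells and 7.21 ± 0.11 in SOX10 -dox cells (2.03 ± 0.22, adjusted p = 4.68e-04). Ndrg1 also rose (1.29 ± 0.24, adjusted p = 0.0107), whereas Septin4, of the septin family that forms filaments in myelin, fell by 1.46 ± 0.33 on the log2 scale (adjusted p = 0.0341). Lpar1 (1.00 ± 0.26) and Tmem88b (1.25 ± 0.33) both had an adjusted p of 0.0637 and were not called. With the replicate number as a block 9 of the 40 were called (7 higher, 2 lower), against 10 when SOX10 +dox replicate 4 was left out and 3 when SOX10 -dox replicate 3 was. Over all 23188 transcript clusters the calls moved the same way, to 1012, 963 and 476 in these settings, against 812 in the main fit. Bcas1, Cadm4 and Aspa were called in all of the fits that left out 1 array.

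The list of regulators of central myelin genes holds mostly transcription factors and their cofactors, and also the ligand Bmp4 and the receptor Gpr17. Of its 33 measured members 6 rose and 1 fell, against 2.26% and 1.24% of all transcript clusters. Sox10 is among the 6 as the gene that was induced, so its call is no result about the list. The median of the list was -0.04. Sox6, a SOX protein that holds back oligodendrocyte maturation, averaged 9.74 ± 0.54 in SOX10 +dox cells and 5.88 ± 0.23 in SOX10 -dox cells (3.86 ± 0.29, adjusted p = 2.78e-05, limma). Zfp365 (2.71 ± 0.29, adjusted p = 4.25e-04), Hif1a (1.99 ± 0.26, 0.00138) and Zfp24 (1.5 ± 0.30, 0.0181) rose too, as did Zeb2 (1.02 ± 0.25, 0.0491). Id2, an inhibitor of basic helix-loop-helix factors that restrains oligodendrocyte differentiation, averaged 7.73 ± 0.93 in SOX10 +dox cells and 10.35 ± 0.98 in SOX10 -dox cells (-2.62 ± 0.51, adjusted p = 0.0156). Prrx1 (-0.87 ± 0.21, adjusted p = 0.0469) was below 2-fold, and Id4 (-0.89 ± 0.35, 0.257) was not called. Myrf, the partner of SOX10 at myelin genes in oligodendrocytes, averaged 11.94 ± 0.58 in SOX10 +dox cells and 11.25 ± 0.53 in SOX10 -dox cells (0.69 ± 0.34, adjusted p = 0.392). Without SOX10 -dox replicate 2 or 3 the calls fell to 4, and these were Sox10, Sox6, Zfp365 and Hif1a.

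None of the 16 measured proteins that bind or carry Mbp mRNA was called by limma, while an unadjusted p under 0.05 was reached by 4 with a higher and 3 with a lower signal, against 7.23% and 7.55% of all transcript clusters. Qki, an RNA-binding protein needed for Mbp mRNA to be kept and exported, differed by 0.70 ± 0.20 (adjusted p = 0.0952) and Tppp by 0.76 ± 0.25 (0.16). Over all transcript clusters 2.26% were called higher. Among 33 measured relatives of the 9 genes, which hold the other claudins, the ERM proteins and Gpm6a, 1 rose, a count near that share. This was Rdx, encoding radixin, which links actin to the membrane, with 13.79 ± 0.19 in SOX10 +dox cells and 12.59 ± 0.05 in SOX10 -dox cells (1.20 ± 0.21, adjusted p = 0.0088). It was not called without SOX10 +dox replicate 2. Cldn15 (-1.16 ± 0.29, adjusted p = 0.0544) and Nf2 (-0.84 ± 0.22, 0.061) were not called. However, limma called Cldn15 lower with the replicate number as a block (adjusted p = 0.0135) and without SOX10 +dox replicate 2 (-1.4, adjusted p = 0.0434). Gpm6a, the closest relative of Gpm6b, differed by 0.15 ± 0.24.

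**Figure D5:**
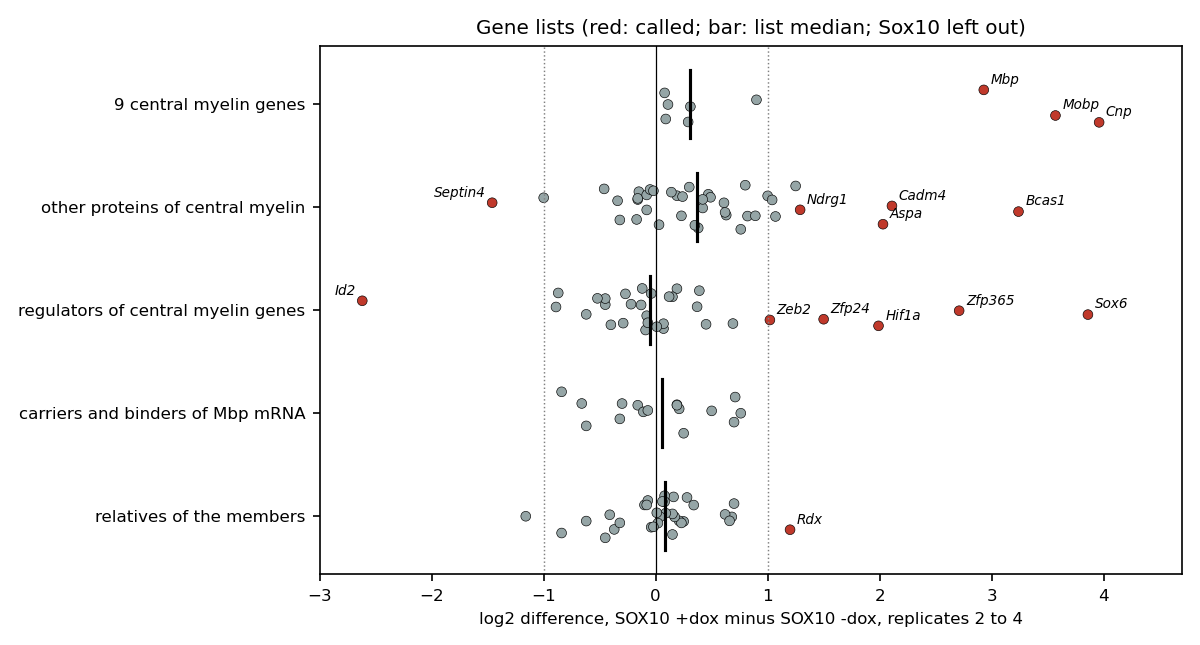
Log2 difference, SOX10 +dox minus SOX10 -dox in replicates 2 to 4, of each measured gene in 5 lists (rows), with called genes in red, list medians as black bars and dotted lines at 2-fold (Sox10 left out). Cnp, Mobp, Mbp and Bcas1 on the myelin rows and Sox6 on the regulator row stand at 2.93 or above, while most genes of every list lie within 2-fold.

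Markers of cell types were read beside these values. Of 9 measured markers of enteric glia 5 rose (Sox10, Erbb3, Nes, S100b and Ngfr), against 2.26% of all transcript clusters called higher. The list is not particular to enteric glia, since the paper describes GFAP, S100B and SOX10 as shared with Schwann cells and central glia. Among the 5, Sox10 is the gene that was induced. The summed linear signal of the other 8 markers was 11393 to 17173 on SOX10 +dox arrays, against 1300 to 2025 on SOX10 -dox arrays. Such a sum follows the genes with the highest signal and does not describe a list as a whole. Here it mostly followed Erbb3, which averaged 13.52 in SOX10 +dox cells and 6.17 in SOX10 -dox cells on the log2 scale. Gfap, a defining glial filament, averaged 5.86 ± 0.43 in SOX10 +dox cells and 5.63 ± 0.18 in SOX10 -dox cells and was not called. Entpd2 (log2 difference 0.13), Sox2 (-0.10) and Fabp7 (0.01) were not called either. Of 8 markers of the oligodendrocyte lineage 1 was called, Bcas1. Myrf (0.69) and Pdgfra (-0.63) differed in opposite directions and were not called. Olig1 (-0.08), Olig2 (0.19), Nkx2-2 (-0.13), Gpr17 (0.15) and Cspg4 (-0.02) differed by less than 0.20 on the log2 scale. The summed signal of this list, in which Myrf has the highest signal, was 4265 to 6633 on SOX10 +dox arrays, against 3596 to 4476 on SOX10 -dox arrays. None of 11 macrophage and microglia markers, 7 neuron markers and 6 markers of fibroblasts and smooth muscle was called by limma. At an unadjusted p under 0.05 these lists held 1, 1 and 0 higher and 0, 0 and 1 lower, beside the shares of 7.23% higher and 7.55% lower over all transcript clusters. The summed signal of the fibroblast and smooth muscle list was 560623 to 671832 on SOX10 +dox arrays, against 800050 to 895012 on SOX10 -dox arrays, so the groups did not overlap. It was 656087 on the GFP +dox array, against 881176 on the GFP -dox array. Col1a1, with the highest signal of this list, averaged 18.77 in SOX10 +dox cells and 19.2 in SOX10 -dox cells and was not called. The part of these cell types in the central myelin values was not tested.

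The genes whose course over the 10 arrays was closest to the 3 that rose were found by the root mean square difference of the centred log2 signals, a description that replicate 1 enters with its labels ignored. Closest to Cnp were Egr2 (0.229), Slc22a23 (0.32) and Rab3b (0.363), and Egr2 encodes the main transcription factor of peripheral myelination. Closest to Mobp were Gpr155 (0.407), Dock9 (0.44) and Tyro3 (0.455), and closest to Mbp were Dtx4 (0.356), Dock9 (0.53) and Tubb2a (0.541). Among the 9 genes themselves, Cnp and Mobp differed by 0.524, Mbp and Mobp by 0.698 and Cnp and Mbp by 0.709.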

How the data were processed

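RNA of JUG2 cells was measured on 10 Clariom S arrays (100 ng total RNA each). The deposited values are log2 signals, 1 for each transcript cluster on each array, which the authors obtained with the Transcriptome Analysis Console. The summarization and normalization are not given in the sources used here. Of 24834 deposited rows, 1646 control probe sets were left out. The platform table gave 1 symbol to 15049 of the other 23188, and for a gene with several transcript clusters that with the highest mean was used.

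Groups come from the sample labels. The 4 groups, with SOX10 replicates 2 to 4 and both GFP arrays, were fitted in limma 3.58.1 (R 4.3.3), and the Benjamini-Hochberg adjustment ran over all 23188. The script was tested on simulated data. The number of arrays limits the precision. Same-numbered SOX10 arrays deviated together from their group means (correlations 0.194, 0.15 and 0.411 for replicates 2, 3 and 4). Arrays of unlike number gave -0.282 to 0.171, so that replicates 2 and 3 were not set off from each other. As every same-numbered correlation was over 0.1, the replicate number was treated as a pairing and run as a block among the alternatives, which also left out each array in turn and changed thresholds, weights, normalization and filters.

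The 9 genes, the gene and marker lists and the handling of replicate 1 were chosen with earlier results of these data known. Per list, the text names up to 6 called genes with the smallest adjusted p and the 2 uncalled genes with the smallest p. Zeb2, Myrf, Gpm6a and the single markers were added outside this rule, after their values were seen. Several listed genes, among them Enpp6 and Gjc3, have no symbol in the platform table and lie outside the counts. Columns of the authors' own comparisons were not used. Some genes are not reported here.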

Additional observations from a re-analysis of the deposited data

Results flagged for a closer look

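The arrays of replicate 1 stood apart from the others of their labelled groups. The log2 signal of Sox10 was 6.74 on the array labelled SOX10 +dox replicate 1, and the gap to the nearest of the other 3 arrays was 0.936 of the range of the group. On the array labelled SOX10 -dox replicate 1 it was 12.9 (0.953). On the same array Mbp, at 9.62, stood apart from the other SOX10 -dox arrays (0.908), as did Cnp at 15.32 (0.92). The values of Sox10 restate why these arrays were set apart and are no separate evidence. Mbp and Cnp followed Sox10 on the same array, so their values are not independent of it. All 4 values passed Dixon's limit for 4 arrays, which chance passes in about 1 in 20 groups. Mobp, with 11.87 there, did not pass this limit. Mbp, Mobp and Cnp were nevertheless at least 1 log2 unit above every untreated array of replicates 2 to 4 and of the GFP line there.

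For Cnp the difference with doxycycline was larger in the SOX10 line than between the GFP arrays, by 3.76 on the log2 scale (adjusted p = 0.0334, limma). With 1 GFP array per group this p rests on the spread of the SOX10 arrays, and the spread of the GFP line was not measured.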

How the results depend on the processing

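Cnp and Mobp were called in every fit of replicates 2 to 4, and the GFP comparison called 0 genes in each alternative that was run on it (not the replicate block, the fit of SOX10 arrays alone or that without both replicate 4 arrays). Of 328 alternative values, 268 kept their direction and side of the threshold, or stayed within 1.5 times for counts. With all 8 SOX10 arrays as labelled 0 of the 9 genes and 0 transcript clusters were called, also for the interaction, and 0 in each list. Leaving out 1 array in turn gave 2 to 4 called genes among the 9 and 475 to 963 called transcript clusters (812 with all of replicates 2 to 4). It gave 0 to 3 genes and 43 to 177 transcript clusters for the interaction (1 and 89 otherwise). It gave 3 to 10 other central myelin proteins (5 otherwise), 4 to 6 regulators (7 otherwise) and 1 relative. This relative was Rdx, except without SOX10 +dox replicate 2, where it was Cldn15 with a lower signal. At an adjusted p under 0.01, 2 of the 9 genes (Mbp was lost), 421 transcript clusters, 3 other myelin proteins and 4 regulators were called, and for the interaction 0 genes and 27 transcript clusters. The replicate block called 1012 transcript clusters, 9 other myelin proteins and 2 relatives, and changed no call among the 9 genes. Array weights called 2 genes and 206 transcript clusters for the interaction, 9 other myelin proteins and 2 relatives. An intensity trend, quantile normalization and leaving out the dimmest 25% of transcript clusters each called 2 relatives. Leaving out both SOX10 arrays of replicate 4, an alternative chosen after seeing the data, called 3 genes and 196 transcript clusters for the interaction and 9 other myelin proteins. Ermn reversed to -0.19 as labelled, and within -0.13 to 0.33 when 1 array was left out (-0.02 without SOX10 +dox replicate 2, -0.13 without SOX10 -dox replicate 2). Cldn11, which lay within -0.16 to 0.29 when 1 array was left out, reversed to -0.16 without SOX10 +dox replicate 4, -0.08 with array weights and -0.21 without both replicate 4 arrays, and Mog, within -0.31 to 0.35, to -0.31 without SOX10 -dox replicate 3. Beyond the fewer arrays of some alternatives, the cause was not tested.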
